A study of Mus musculus with 40 samples.

Results

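The experiment asked whether repeated cross fostering (RCF), an early-life stress, left a different trace in the ventral tegmental area of 2 mouse strains. All 40 libraries of the series entered, 10 for each of the 4 combinations of strain (C57/Bl6, here C57, or DBA) and treatment (RCF or unhandled control), with 5 males and 5 females in each. Litters of the RCF groups passed to a new adoptive mother daily from postnatal day 1 to postnatal day 4, and all mice were adult when the ventral tegmental area was punched from frozen brains. The quantity reported for each gene is the interaction of strain and treatment. It is the RCF minus control difference in DBA less the RCF minus control difference in C57, on the log2 scale, with sex as a covariate. A positive interaction means that RCF libraries lay higher against their controls in DBA than in C57. The differences within each strain are printed only as the parts of that quantity. The labels name neither the animal nor the litter behind a library, nor the strain of the adoptive mothers, and the p-values therefore reflect library-to-library spread, part of which may be technical.

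The ventral tegmental area is a midbrain region whose dopamine neurons project to the striatum and cortex and take part in reward and motivation. Dopamine is made from tyrosine by tyrosine hydroxylase (Th), loaded into vesicles by Slc18a2 and taken back up by the transporter Slc6a3. Stress hormones act there through the glucocorticoid receptor (Nr3c1), which drives genes such as Fkbp5 and Sgk1, and through corticotropin-releasing factor (CRF) and its receptor Crhr1. A strain by treatment interaction is a difference of differences, so its error holds the spread of all 4 sets of libraries.

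Total counts were 16913124 to 28179071 per library, and 18441 genes were tested. Levels are CPM, counts scaled to a common library size, with TMM factors unless stated otherwise. Some libraries stood apart. In the library labelled C57 control male replicate 5, genes that differ at least 8-fold between the strains gave an estimated 26.4% of DBA-type RNA, against -2.75% to 2.80% of the other strain in the other 39 libraries. Slc17a7, the vesicular glutamate transporter of cortical and hippocampal neurons, exceeded 400 CPM of total counts in 4 libraries: C57 control males 1 and 5, C57 RCF female 4 and DBA control female 3. Markers of dopamine neurons varied widely within each set. Th ran from 0.725 to 1640 CPM over all libraries. In such bulk samples, fewer cells of a type and less RNA per cell cannot be told apart.

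A difference in the RCF effect between strains passed the threshold for a single gene. The test was edgeR's quasi-likelihood F test, and a gene was called at a Benjamini-Hochberg adjusted p under 0.05. Of the 18441 genes tested, 1 was called (0.00542%), with a positive interaction, and 0 were called with a negative one. Before adjustment, 1026 genes (5.56%) had a p under 0.05, of which 449 (2.43%) were positive and 577 (3.13%) negative. DESeq2 called 3 genes, and limma voom called 0. The median interaction of all tested genes was -0.01 and its median standard error 0.19. The 95% interval lay within 2-fold in both directions for 13190 genes (71.5%) and within 1.5-fold for 10020 genes (54.3%). For the other genes the interval reached beyond 2-fold in at least 1 direction.

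The called gene was Gm48159 (ENSMUSG00000110831.1), a long noncoding RNA on the plus strand of chromosome 10, from 29534717 to 29614471 in GRCm38. The annotation classes it as antisense, because its exon 1 (29534717 to 29535635) shares 404 nt with exon 1 of Rspo3, which encodes a secreted activator of Wnt signalling, on the opposite strand. The other 515 nt of exon 1 lie in an intron of Rspo3. Its exon 2 (29614278 to 29614471, 194 nt) lies far from Rspo3, on the opposite strand to the processed pseudogene Gm46197. Exon 2 is shown because it is the exon of Gm48159 that shares no base with Rspo3. It is read from the GENCODE transcript in the 5′ to 3′ direction, with no part marked.
Gm48159 exon 2: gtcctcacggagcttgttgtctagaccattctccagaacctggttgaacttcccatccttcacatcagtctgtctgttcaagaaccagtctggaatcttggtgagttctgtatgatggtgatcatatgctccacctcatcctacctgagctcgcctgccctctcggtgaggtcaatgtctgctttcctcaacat

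Counts of Gm48159 were low throughout, and they were lowest in DBA controls. The 5 DBA control females had 4, 5, 4, 3 and 0 reads and the 5 DBA control males 2, 2, 5, 4 and 3. The 5 DBA RCF females had 39, 19, 26, 33 and 60 reads and the 5 DBA RCF males 40, 62, 45, 26 and 25. Every DBA RCF library therefore lay above every DBA control library. Gm48159 was the 1 gene of the 18441 tested for which RCF and control libraries of DBA did not overlap, while in C57 there were 0 such genes. In C57 the sets overlapped, with 8 to 88 reads in controls and 15 to 124 reads after RCF.

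In normalized units, DBA controls lay at 0 to 0.221 CPM (median 0.152), and DBA RCF libraries at 0.830 to 2.52 CPM (median 1.38). C57 controls lay at 0.368 to 3.50 CPM (median 1.97), and C57 RCF libraries at 0.682 to 5.57 CPM (median 2.15). The low set was thus DBA control alone, and the DBA RCF libraries fell inside the range of both C57 sets. The RCF minus control difference was 3.41 in DBA and 0.49 in C57. The interaction was 2.92 (SE 0.52, 95% interval 1.86 to 3.97, adjusted p = 0.0352, edgeR quasi-likelihood). It was 3.39 in males and 2.41 in females when each sex was fitted alone, and the difference between the sexes did not pass the test (-1.0, SE 1.09, adjusted p = 0.644).

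**Figure D1:**
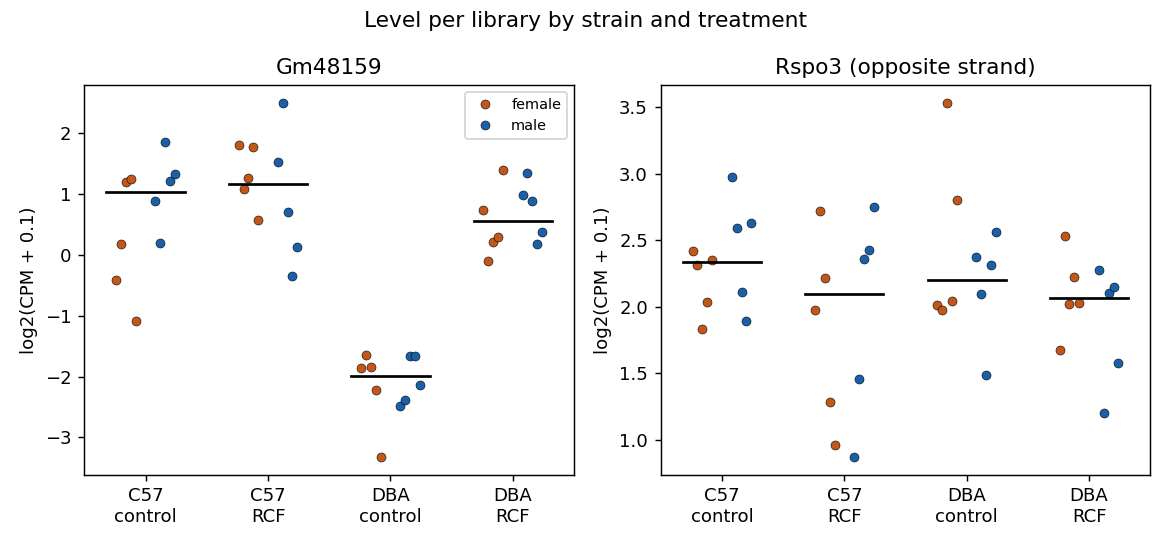
Level of Gm48159 and of Rspo3 in each library, as log2(CPM + 0.1), by strain and treatment. Points are libraries (orange female, blue male) and bars are medians of 10. For Gm48159 the 10 DBA control libraries lie below the other 30, while the sets overlap for Rspo3.

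The size of the Gm48159 interaction was steadier than its call. Leaving out 1 library at a time gave 2.76 to 3.15, and the call ended in 22 of those 40 fits, with adjusted p from 0.0502 to 0.103. Those fits left out C57 control females 3 and 4, C57 control males 1, 4 and 5, C57 RCF females 2, 3 and 5, C57 RCF males 3 and 5, DBA control females 1, 4 and 5, DBA control males 1, 2, 3 and 4, DBA RCF females 1 and 5, or DBA RCF males 1, 2 and 3. Without the library that carried DBA-type RNA the value was 2.87 (adjusted p = 0.0694). Without the 4 libraries high in Slc17a7 it was 3.03 (adjusted p = 0.106), and with limma voom 3.03 (adjusted p = 0.544).

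Rspo3 lay at 3.47 to 7.76 CPM in C57 controls, 1.73 to 6.65 in C57 RCF, 2.71 to 11.5 in DBA controls and 2.2 to 5.68 in DBA RCF libraries. These 4 ranges overlapped, and the interaction of Rspo3 was -0.10 (SE 0.33, adjusted p = 0.989). The library kit keeps strand, but the strand setting of the counting is not given in the sources used here. Reads over the 404 shared nt therefore cannot be assigned with certainty. The same holds for exon 2, which the pseudogene Gm46197 covers on the opposite strand.

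Below the threshold, the smallest p with a negative interaction belonged to Dr1, which encodes a subunit of the NC2 repressor of transcription. It lay at 32.4, 34.1 and 39.4 CPM in C57 controls (lowest, median and highest) and at 32.2, 39.4 and 42.9 in C57 RCF. In DBA the order was the other way, with 32.7, 40.7 and 46.6 CPM in controls and 29.4, 32.5 and 36.5 after RCF. All ranges overlapped. The interaction was -0.40 (SE 0.08, adjusted p = 0.113), with -0.34 in males and -0.46 in females. DESeq2 called it (adjusted p = 0.0155), as did the fits without C57 control male 3, C57 RCF male 1 or DBA control male 5 (adjusted p = 0.0424, 0.0453 and 0.0427).

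Ube2d3, a ubiquitin-conjugating enzyme, and Zfp771, a zinc finger protein, had values of the same kind. Ube2d3 had medians of 196 and 224 CPM in C57 control and RCF and of 192 and 162 CPM in DBA control and RCF, an interaction of -0.35 (SE 0.08, adjusted p = 0.592). Zfp771 had medians of 25.7 and 28.6 CPM in C57 and of 31.6 and 27.7 CPM in DBA, in the same order, an interaction of -0.31 (SE 0.07, adjusted p = 0.578). For both, the male and the female value had the same sign, which picking genes by the fit to both sexes favours. Ube2d3 matches Gm4596 at 97.3% identity over 438 nt, and the origin of reads over that stretch is uncertain. Zxdb, a zinc finger gene on chromosome X, gave -0.60 (SE 0.16, adjusted p = 0.774). Its transcript matches that of Zxda at 100% identity over 2622 nt, and the split of reads between them is uncertain.

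Among positive interactions the next were Mmp14, a membrane-bound metalloproteinase, Mcm9 and Eepd1, both with roles in DNA repair, and the lincRNA Gm47015. Mmp14 ran at 17.5, 25.2 and 37.5 CPM in C57 controls, 15.3, 20.9 and 24.4 in C57 RCF, 14.4, 19.5 and 27.0 in DBA controls and 19.5, 24.7 and 29.6 in DBA RCF libraries (lowest, median and highest). RCF medians thus lay below controls in C57 and above them in DBA, in overlapping ranges, and the interaction was 0.66 (SE 0.16, adjusted p = 0.601). Mcm9 gave 0.44 (SE 0.12, adjusted p = 0.774), with the male and female values at 0.53 and 0.35. Eepd1 gave 1.20 (SE 0.33, adjusted p = 0.774), and its highest set was C57 control, at 3.40 to 12.3 CPM with a median of 8.55.

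Gm47015 (ENSMUSG00000112907.1, chromosome 10, 79412962 to 79417905, minus strand) separates the strains. DBA libraries had 229 to 813 reads. C57 libraries had 0 to 7 reads, apart from 87 in C57 control male 5, the library with DBA-type RNA. The interaction was 4.19 (SE 1.13, adjusted p = 0.774) with that library and 1.58 without it. Gm2451, with -4.05 (SE 0.93, adjusted p = 0.578), differed between the sexes and is described with them. It was called for the interaction itself by DESeq2 and by the fit to 8 group means.

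**Figure D2:**
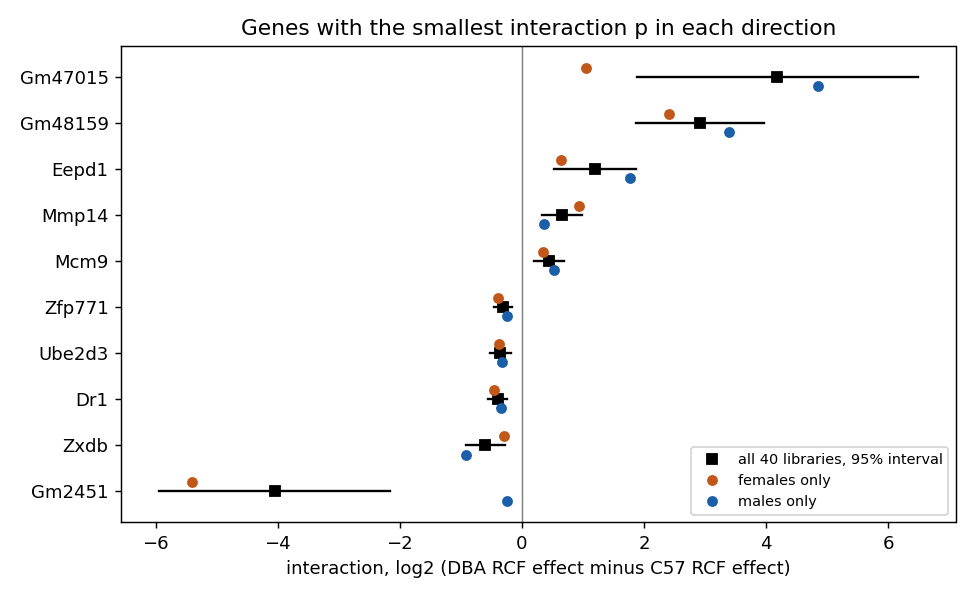
Interaction of strain and treatment (log2) for the 5 genes with the smallest p in each direction. Black squares with lines are all 40 libraries with 95% intervals, and circles are the fits in females (orange) and males (blue) alone. For each of the 10 genes both sexes lie on one side of 0, which picking genes by the fit to both sexes favours. The sexes lie far apart for Gm2451, at -5.41 in females and -0.25 in males.

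Genes of dopamine neurons had large negative interactions with errors nearly as large, and none passed the test. Th lay at 8.34, 67.7 and 1100 CPM in C57 controls (lowest, median and highest) and at 0.725, 768 and 1260 in C57 RCF. It lay at 3.11, 30.7 and 1640 CPM in DBA controls and at 12.4, 30.7 and 935 in DBA RCF. The C57 RCF set had the high median, and every range spanned more than 10-fold. The interaction of Th was -2.26 (SE 1.67, adjusted p = 0.928), and those of Slc6a3, Slc18a2 and the autoreceptor gene Drd2 were -2.79 (SE 2.35), -2.44 (SE 1.47) and -1.36 (SE 0.83).

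These values moved widely with 2 single libraries. DBA control male 3 held the highest Th, and without it the interactions became -0.09 for Th, 0.49 for Slc6a3, -0.12 for Slc18a2 and -0.55 for Drd2. Without DBA RCF female 5 they moved the other way, to -3.71 for Th and -4.69 for Slc6a3. Of the 23 markers of dopamine neurons, all tested, 21 were negative and 2 positive, against 53.0% negative among all tested genes. The median of the list was -1.36 (males -2.51, females 0.38), with 0 members at an unadjusted p under 0.05. Without DBA control male 3 the median was 0.04 and 11 were negative, and without DBA RCF female 5 the median was -1.77. The summed level of the list had medians of 1330 and 6600 CPM in C57 control and RCF and of 1090 and 1190 CPM in DBA control and RCF, with a range of 395 to 14100 CPM over all libraries. Nicotinic receptor subunits, some of which mark dopamine neurons, had a median of -0.43 (6 of 9 negative) and was at 0.06 without DBA control male 3 and -1.34 without DBA RCF female 5.

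Among stress-hormone genes, 0 were called. Nr3c1, the glucocorticoid receptor, had medians of 81.4 and 81.4 CPM in C57 control and RCF and of 93.6 and 93.7 CPM in DBA control and RCF. Its interaction was 0.04 (SE 0.16, 95% interval -0.29 to 0.37, adjusted p = 0.992). Of the 12 tested corticosteroid receptors and regulators, 6 were positive and 6 negative, with a median of 0.01.

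Genes that respond to glucocorticoids leaned to one side. Of the 19 tested, 18 were negative and 1 positive, and the median was -0.27 (males 0.06, females -0.62), against -0.01 for all tested genes. Before adjustment, 4 of them (21.1%) had a p under 0.05, all negative, against 5.56% of all tested genes (3.13% negative), and 0 passed the adjusted threshold. Without the 4 libraries high in Slc17a7, 16 were negative and the median was -0.26, and without DBA control female 3 alone it was -0.15. Genes of a list vary together between libraries, so their signs are not independent.

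The 4 were Plin4, Fkbp5, Sgk1 and Map3k6. Plin4, a coat protein of lipid droplets, lay at 2.04, 2.92 and 3.94 CPM in C57 controls, 2.18, 5.35 and 28.2 in C57 RCF, 2.33, 5.76 and 8.62 in DBA controls and 2.50, 4.34 and 7.72 in DBA RCF libraries (lowest, median and highest). The highest values were in C57 RCF females, of which replicate 2 held 28.2 CPM, while C57 RCF males lay at 2.18 to 5.52. The interaction was -1.46 (SE 0.48, adjusted p = 0.816), and -1.0 without that female. Fkbp5, a co-chaperone that dampens the glucocorticoid receptor, had medians of 19.5 and 22.6 CPM in C57 control and RCF and of 24.4 and 22.6 CPM in DBA control and RCF, an interaction of -0.40 (SE 0.15, adjusted p = 0.818). Sgk1, a kinase induced by corticosteroids, was at 169 and 174 CPM in C57 RCF females 2 and 4 and at 28.2 to 73.6 CPM in the other C57 RCF libraries. Its interaction was -0.92 (SE 0.39, adjusted p = 0.873), with 0.15 in males and -1.99 in females.

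In the CRF system, the gene with the smallest p was Crhbp, which encodes the CRF-binding protein that keeps the peptide from its receptors. It lay at 12.1, 18.7 and 49.7 CPM in C57 controls and 1.19, 13.0 and 22.3 in C57 RCF, then at 10.5, 16.7 and 29.7 in DBA controls and 15.9, 25.9 and 57.6 in DBA RCF (lowest, median and highest). Medians were lower after RCF in C57 and higher after RCF in DBA, in overlapping ranges. The interaction was 1.42 (SE 0.41, adjusted p = 0.774), positive in males (1.01) and in females (1.84), and 1.20 to 1.54 when each library was left out. Of the 25 tested CRF and stress neuropeptide genes, 16 were positive and 9 negative. Crhbp was the 1 member at an unadjusted p under 0.05 (4%, against 5.56% of all tested genes). Crhr1 gave -0.37 (SE 0.31, adjusted p = 0.936), and 0.03 without C57 RCF female 4, where it was at 87.6 CPM against 11 to 27.4 in the other 39 libraries.

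Bdnf, a growth factor of neurons, Oprm1, the mu opioid receptor, and Fos, a marker of recent activity, were given whatever their p. Bdnf gave 0.34 (SE 0.21, adjusted p = 0.919). Oprm1 gave 0.65 (SE 0.42, adjusted p = 0.919), with medians of 2.98 and 2.67 CPM in C57 control and RCF and of 2.55 and 5.37 CPM in DBA control and RCF. Fos gave -0.14 (SE 0.56, adjusted p = 0.991). The opioid and cannabinoid list had 7 positive and 6 negative of 13 tested, and immediate early genes 8 positive and 9 negative of 17.

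Most members of 3 receptor lists had positive values, with small medians. Serotonin receptors were positive for 10 of 12 tested (median 0.20), led by Htr1d at 0.93 (SE 0.44, adjusted p = 0.877). Of 18 GABA-A and glycine receptor subunits 12 were positive (median 0.16, and 0.05 without C57 RCF female 4). Of 23 glutamate receptors 15 were positive, with a median of 0.04 that became 0.19 without DBA control female 3 and 0.00213 without C57 control male 1. Of these, 4 (17.4%, against 5.56% of all tested genes) had an unadjusted p under 0.05: Grm2 at 1.45, Grik2 and Grm7 at 0.51, and Grin2c at -0.47. Interferon-response genes were positive for 19 of 24 (median 0.24, and 0.11 without DBA RCF male 2), with 0 at an unadjusted p under 0.05.

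Among markers of other cell types, several lists had most members on one side of 0. Myelinating oligodendrocyte genes were negative for 18 of 18 tested, with a median of -0.19 and a lowest adjusted p of 0.946. The median was 0.53 in males alone and -0.91 in females alone. In the fit to both sexes together, it was -0.08 without C57 RCF female 4. Microglial genes were negative for 15 of 16 (median -0.21), among them the purinergic receptor gene P2ry12 at -0.37 (SE 0.18, adjusted p = 0.887). Meningeal genes were positive for 10 of 10 (median 0.40), but without C57 control male 3 the median was -0.05. Genes of cholinergic neurons were positive for 6 of 6 (median 0.79), among them the choline transporter Slc5a7 at 0.98 (SE 0.43) and the vesicular transporter Slc18a3 at 1.96 (SE 0.89). In a fit with the mean levels of the dopamine, forebrain and hypothalamic markers as covariates, the myelinating median was -0.02, with 11 negative. The microglial, meningeal and cholinergic medians were then -0.16, 0.46 and 0.91. The part of the cell types named here in the interactions of other genes was not tested.

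Metabolic and translation genes gave narrow values. Of 50 nuclear-encoded respiratory chain genes, 45 were negative and 5 positive, with a median of -0.08 (-0.04 without C57 RCF female 4). Uqcrc1 at -0.22 and Atp5d at -0.20 were the members at an unadjusted p under 0.05 (4%, against 5.56% of all tested genes). All 9 tested mitochondrially encoded genes were negative (median -0.15). Of 76 cytosolic ribosomal protein genes, 47 were negative (median -0.04), and 7 (9.21%) had an unadjusted p under 0.05, all negative, against 5.56% of all tested genes (3.13% negative). Among these, Rpl13a had medians of 12.7 and 13.6 CPM in C57 control and RCF and of 13.6 and 10.9 CPM in DBA control and RCF, an interaction of -0.45 (SE 0.13, adjusted p = 0.774). Ribosomal protein genes have many processed pseudogenes, and how the counting split such reads is not given. Sox9, an astrocyte transcription factor, gave 0.30 (SE 0.10, adjusted p = 0.807), while the astrocyte list had a median of 0.09 with 9 of 12 positive.

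The remaining lists gave no called gene either. Negative members outnumbered positive ones among serotonin neuron (5 of 7 negative, median -1.52), GABA neuron (7 of 10, -0.15), forebrain glutamate (9 of 12, -0.52), thalamic and red nucleus (6 of 9, -0.44) and blood cell genes (5 of 5, -0.46). The same held for oligodendrocyte precursor (7 of 10, -0.06), circadian clock (12 of 18, -0.11), MHC H2 (12 of 18, -0.07) and synaptic vesicle genes (19 of 29, -0.03). Positive members outnumbered negative ones among hypothalamic (11 of 16 positive, median 0.33), endothelial (10 of 16, 0.06), ependymal (5 of 7, 0.27) and neurotrophin genes (7 of 12, 0.06), acid sensing and bicarbonate transport (16 of 24, 0.04) and histone and DNA modifying enzymes (24 of 34, 0.07). Dopamine receptors and signalling (6 of 12, 0.01), heat shock (11 of 22) and imprinted genes (14 of 28) were evenly split. Leaving out 1 library moved several of these medians. The forebrain median was 0.71 and the thalamic 0.07 without DBA control female 3, the serotonin neuron median -0.30 without C57 RCF female 5, and the ependymal median -0.29 without DBA RCF male 2. The hypothalamic median ran from 0.06 without C57 control female 1 to 1.08 without C57 RCF male 5. In the lists of this paragraph with a median under 0.2 in size, left-out fits gave medians from -0.28 to 0.11. The glycine and the pituitary list had 1 tested member each, Slc6a5 at -3.13 (SE 1.10, adjusted p = 0.818) and Pomc at -0.94 (SE 0.56, adjusted p = 0.918), with Slc6a5 at -1.91 without C57 RCF female 4 and Pomc at 0.07 without C57 RCF female 2.

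**Figure D3:**
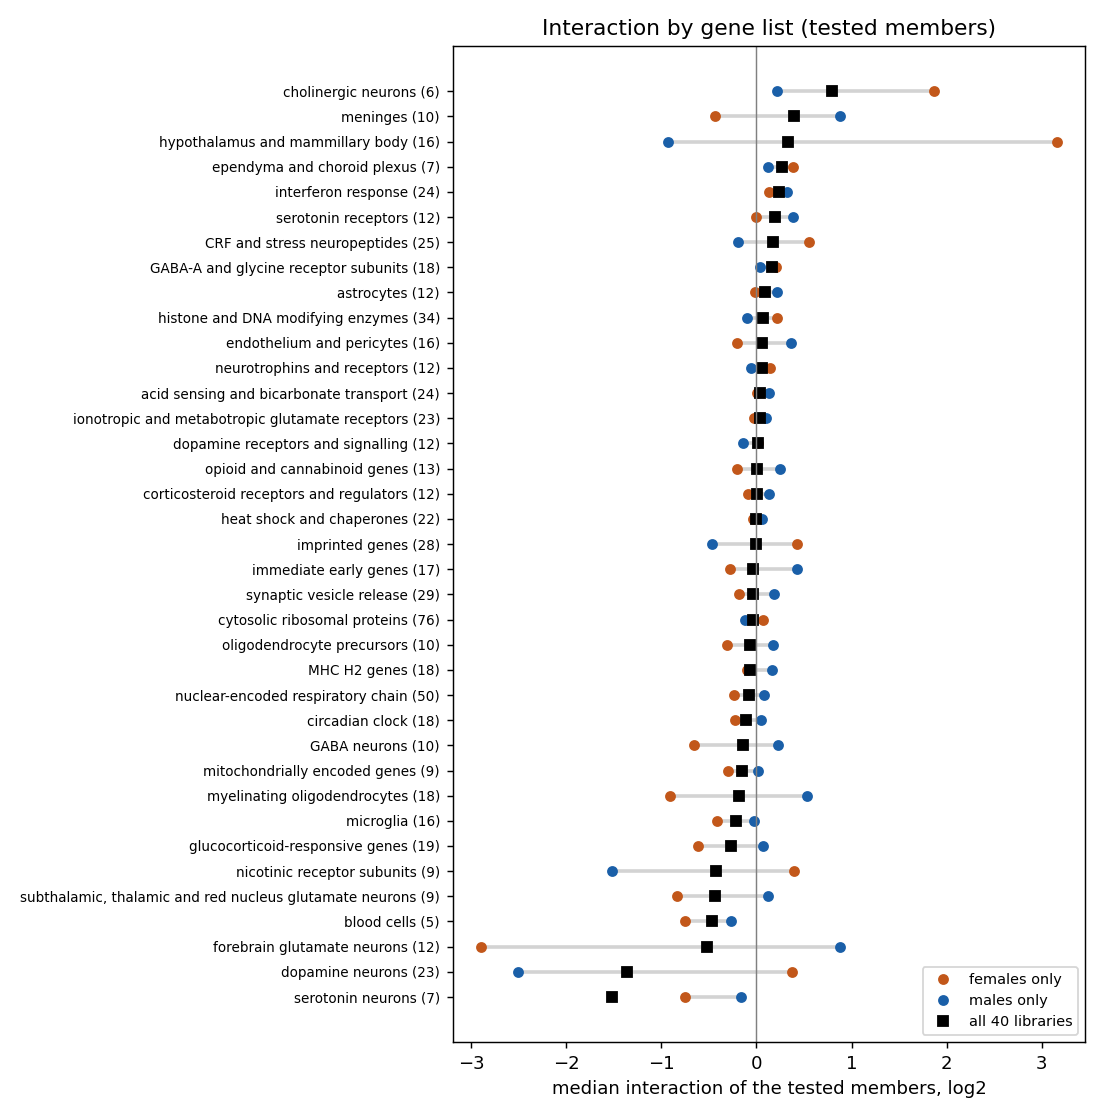
Median interaction (log2) over the tested members of each list with at least 5 tested members, whose number stands in brackets. Black squares are all 40 libraries, orange circles females alone and blue circles males alone. Most squares lie near 0. Male and female medians lie on opposite sides of 0 for most lists, among them the dopamine, myelinating, hypothalamic and forebrain lists.

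Before adjustment, more genes had a p under 0.05 for the sex difference of the interaction than for the interaction itself. After adjustment, each test called 1 gene. Fitted alone, males gave 0 called genes and 1258 (6.82%) at an unadjusted p under 0.05. Females gave 1 called gene and 3181 (17.2%) at an unadjusted p under 0.05. The male and female fits share no library. Of the 275 genes at an unadjusted p under 0.05 in both (21.9% of the male and 8.65% of the female list), 25 had the same sign. Over all tested genes, 7025 (38.1%) had the same sign, and the correlation across genes was -0.26 (Pearson) and -0.30 (Spearman). Genes are not independent replicates and vary together with the tissue content of a library, so these are descriptions of 2 sets of 20 libraries.

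The test of the difference itself, females minus males, called 1 gene of 18441 (0.00542%), while 3570 (19.4%) had an unadjusted p under 0.05. The median standard error of this difference was 0.36. Lists with many such genes were myelinating oligodendrocytes (16 of 18), hypothalamus and mammillary body (10 of 16), imprinted genes (17 of 28), forebrain glutamate neurons (7 of 12), respiratory chain (24 of 50) and glucocorticoid-responsive genes (9 of 19), each read against the 19.4% of all genes. The hypothalamic list had a median interaction of -0.93 in males and 3.16 in females, the forebrain glutamate list 0.88 and -2.89, and the imprinted list -0.47 and 0.42. DESeq2 called 208 genes for this difference, 81 higher and 127 lower. By edgeR, leaving out DBA control male 2 gave 201 called genes, leaving out DBA control male 3 gave 5 and leaving out C57 control female 4 gave 4.

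**Figure D4:**
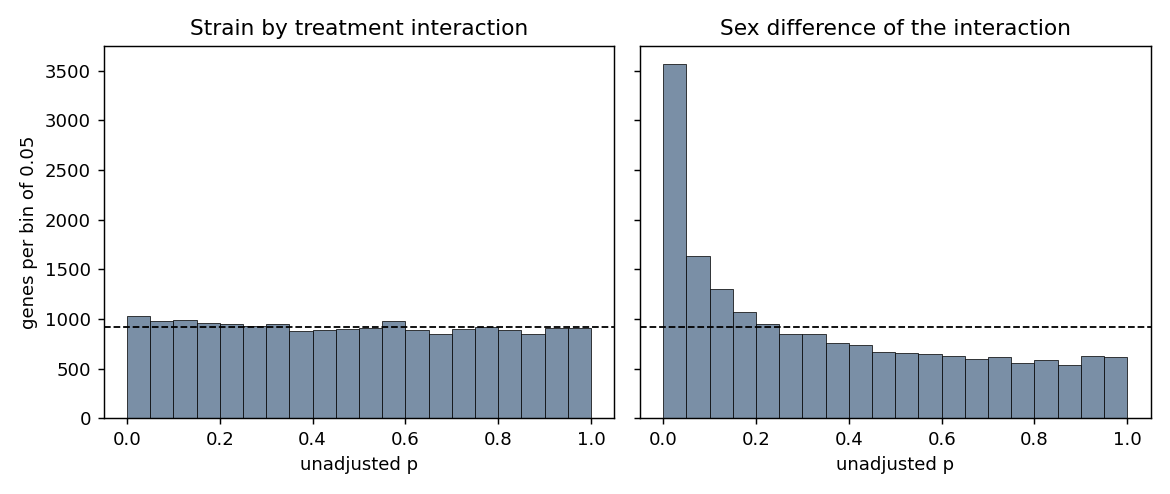
Number of genes in each bin of unadjusted p (width 0.05) for the interaction and for its sex difference, 18441 genes each. The dashed line is an even spread; the first bin holds 1026 genes for the interaction and 3570 for the sex difference.

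The gene called for the sex difference was Gm2451 (ENSMUSG00000106574.1, chromosome 3, 139649379 to 139650377, plus strand), a processed pseudogene inside Stpg2 on the same strand. Its sequence matches Gapdh, a glycolytic enzyme gene, at 99.6% identity over 999 nt. The 5 DBA control females had 472, 450, 468, 509 and 415 reads. The other 35 libraries had 3 to 16 reads. No other group of 5 was raised, so the value rests on this group alone. The interaction was -5.41 in females and -0.25 in males, and the difference -5.17 (SE 0.73, adjusted p = 4.48e-04). It was called in each of the 40 fits that left out 1 library (-5.61 to -4.90) and in all 9 alternatives. Gapdh itself lay at 552 to 722 CPM in DBA controls and 554 to 682 CPM in DBA RCF libraries, with overlapping ranges. With 79 other genes or pseudogenes above 95% identity, the origin of these reads is uncertain.

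Zfp992, a zinc finger gene, came next, at -4.39 (SE 0.83, adjusted p = 0.0563). It lay at 0.0405 to 0.491 CPM in C57 control females and 0.187 to 0.878 in C57 RCF females, and at 0.597 to 1.26 in C57 control males and 0.0455 to 0.169 in C57 RCF males. The C57 males thus did not overlap between treatments, while the C57 females did. The share of all tested genes that separate like this in C57 males was not counted. Picking a gene by its sex difference also favours such a gap in a single sex. Its transcript matches Zfp991 at 99.3% identity over 2491 nt, so its reads are uncertain too.

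The other genes given for the sex difference all had an adjusted p of 0.122. Kcnj11, a subunit of the ATP-sensitive potassium channel, gave -1.39 (SE 0.29). Its females lay at 24.5 to 34.1 CPM in DBA controls and 18.8 to 20.7 in DBA RCF, and at 17.8 to 34.4 in C57 controls and 28 to 49.4 in C57 RCF. The DBA females did not overlap between treatments and the C57 females did. How many of all tested genes separate in this way within DBA females was not counted, and picking by the sex difference favours it. Btbd3, which takes part in shaping dendrites, gave -1.39 (SE 0.29) and Spata2 gave -1.11 (SE 0.24). In the other direction stood Gm37206 at 2.23, the chloride channel Clcn1 at 1.96 and N4bp2 at 1.75. Npvf, a hypothalamic neuropeptide gene, and Gm47720 were at 0 reads in some libraries of every set, so no size is given for them.

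**Figure D5:**
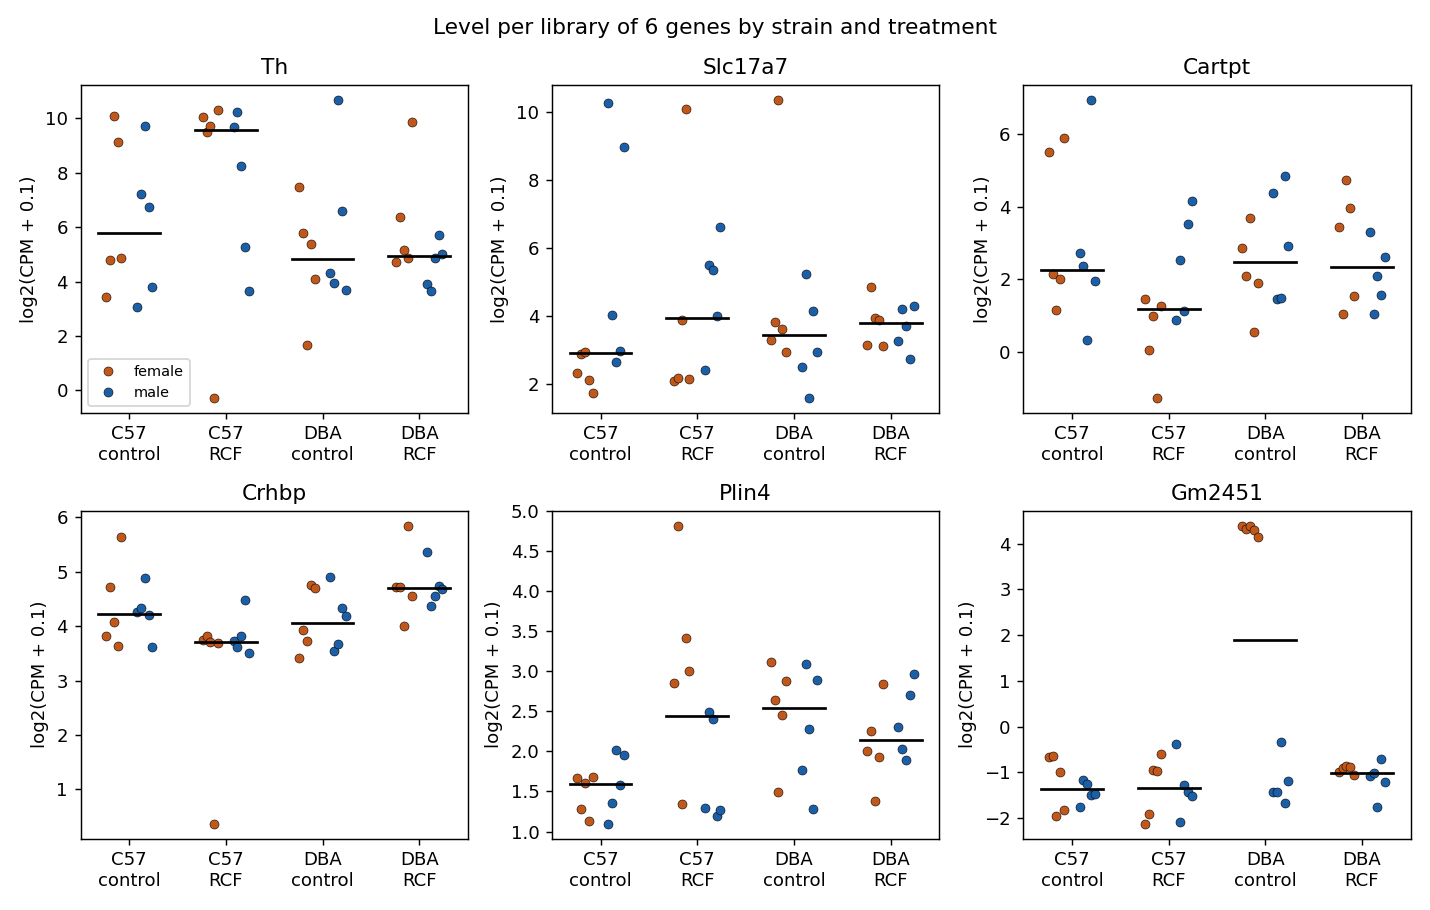
Level of 6 genes in each library, as log2(CPM + 0.1), by strain and treatment. Points are libraries (orange female, blue male) and bars are medians of 10. Th and Slc17a7 spread widely within sets, Cartpt (a hypothalamic peptide gene), Crhbp and Plin4 overlap between sets, and for Gm2451 the 5 DBA control females stand alone.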

How the data were processed

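Messenger RNA of 40 punches was read from one end (75 nt, Illumina NextSeq), per the labels' protocols. The submitters' processing notes name bcl2fastq 2.20, cutadapt 1.11, FastQC and the builds GRCm38 and mm10. No source used here names the aligner, the counter or its strand setting. The deposited values are raw read counts per gene (55471 genes, 42664 with a count). Groups came from the labels.

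Genes were filtered with filterByExpr over the 8 groups (18441 tested), scaled by TMM (factors 0.905 to 1.09) and fitted with edgeR 4.0.16 in R 4.3.3 (robust quasi-likelihood, 35 residual degrees of freedom). The sex difference came from 8 group means (32). Alternatives used limma 3.58.1, DESeq2 1.42.0, other filters, scalings, covariates and left-out libraries. The fit without the 4 libraries high in Slc17a7 was chosen after seeing the data. The scripts were tested on simulated counts. No 2 libraries of a group were duplicates (chi-square per degree of freedom 5.51 to 141). Symbols and coordinates are GENCODE's for GRCm38. Near copies were searched with blastn 2.17.0 at 95% identity over at least 75 nt, in the same orientation only. Copies in the opposite orientation were not searched.

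Genes were to be named as the 12 smallest p in each direction among those called, or the 5 smallest where fewer than 5 passed, plus 10 that were always given and up to 4 per list. Figures and texts also name Rspo3, Gapdh, Slc17a7 and Gm29253, chosen after their values were seen. The lists were 17 of cell markers and 22 of pathways. Members and lists were chosen with earlier results of these data known.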

Additional observations from a re-analysis of the deposited data

Results flagged for a closer look

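The RCF effect on Gm48159 differed between the strains by a tested interaction of 2.92 on the log2 scale. Its DBA control libraries held 0 to 5 reads and the other 30 libraries 8 to 124 reads.

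The interaction of Gm2451 differed between females and males by -5.17 on the log2 scale in the test of that difference. The 5 DBA control females held 415 to 509 reads, and the other 35 libraries 3 to 16. What sets this group apart was not tested.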

How the results depend on the processing

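The number of genes called for the interaction was 1 with RLE scaling, no low-count filter, a mean of at least 1 CPM, no robust fit, marker covariates, and in females alone. It was 3 with DESeq2 (Gm48159, Dr1 and Gm2451) and 2 with 8 group means (Gm48159 and Gm2451). It was 0 with limma voom, voom with sample quality weights, males alone and without the 4 libraries high in Slc17a7. Leaving out 1 library gave 0 to 2. The gene called in females alone was Gm2451. Same-numbered libraries of different groups correlated at -0.36 to 0.45 (median -0.01, 140 pairs), and those of different number at a median of -7.51e-04. Of 40 libraries, 11 matched best with their own number. The number to be met without pairing was not computed, so a partial pairing by replicate number cannot be told. With the replicate number as a block, 0 genes were called, and Gm48159 was at 2.98 (adjusted p = 0.0672). The Gm48159 interaction stayed positive in all 40 left-out fits and in 11 other fits to both sexes (2.74 to 3.30). The sex difference called 208 genes with DESeq2, 2 without the robust fit and 1 to 201 when a library was left out, and Gm2451 was called with the block too (-5.20). No result turned direction while called. The median standard error of the interaction, 0.19, limits the differences that could be seen, and the parts of it due to counting and to spread between punches were not separated.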

Other observations

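Groups of libraries were searched for genes whose 5 libraries all lay at least 3-fold away from the other 35, after adding 0.1 CPM. Among the 18441 tested genes and 8 groups there were 2 such genes, Gm2451 in DBA control females and Gm29253 in C57 RCF males. Gm29253, on chromosome 1, lay at 0.669 to 1.32 CPM in the 5 C57 RCF males and at 0 to 0.0851 CPM in the other 35 libraries. It passed the low-count filter only through the group where it was high, so its standing apart is partly set by that filter. No set of 10 libraries of a strain and treatment stood apart from the other 30 in this way, with Gm48159 in DBA controls short of the 3-fold gap.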
